A study of Mus musculus with 9 samples.

Results

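The genes described here are the EGR and NR4A immediate-early factors and their NAB co-repressors, 9 of 22180 mouse genes measured on the arrays. They were chosen by symbol (Egr1, Egr2, Egr3, Egr4, Nab1, Nab2, Nr4a1, Nr4a2 and Nr4a3), and all 9 had a probe set annotated to a single gene. The cells were hMLKL1-181-2Fv-NIH3T3, mouse fibroblasts that express a stretch of human MLKL joined to Fv domains. In necroptosis, MLKL is the pseudokinase that makes the cell membrane leaky. B/B is a small dimerizer that links Fv domains and so brings copies of the fusion protein together. Washout cells received 50 nM B/B for 1 h, were sorted as AnnV+ (positive for annexin V, which binds phosphatidylserine on the cell surface) and were then kept for 6 h of washout, given in the series design as 3000 nM of a compound it does not name. B/B 1 h cells received 50 nM B/B for 1 h and were sorted as AnnV+. Control cells had a control treatment, and all 3 groups carried the fusion protein. Each group had 3 arrays. From the labels it is not known if control cells were sorted, when they were harvested, if the line is a clone or a pool, or if replicates came from separate cultures. In each comparison with control, B/B, sorting and time in culture cannot be told apart, nor can the compound where washout cells are compared. Between washout and B/B 1 h cells, the removal of B/B, the compound and 6 h more in culture after sorting cannot be told apart. The p-values measure only the spread between these samples, and part or all of it may be technical.

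EGR proteins are zinc finger transcription factors that bind GC-rich DNA. NAB proteins dock on EGR1, EGR2 and EGR3 and repress their activity, and EGR factors in turn induce Nab2, so that the pair forms a feedback loop. NR4A proteins are orphan nuclear receptors that act without a classical hormone ligand and bind the NBRE element as monomers. In fibroblasts, growth factors, calcium and stress switch on Egr and Nr4a genes within minutes through kinase pathways that act on SRF with its ETS-family partners, on CREB and on MEF2, without new protein synthesis, and their short-lived transcripts decline soon after.

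Levels are deposited log2 values of 1 probe set per gene, so that a difference of 1 is a doubling, and base 2 was inferred from the range of the values. Array medians lay between 4.598 and 4.676. The same value, to every printed digit, recurred between arrays of a group in 3.66% to 4.77% of probe sets and between arrays of different groups in 3.28% to 4.96%, so that arrays of a group were no more often identical than others. All 3 values of a group were identical in 1.40% of probe sets for washout, 1.16% for B/B 1 h and 1.30% for control. Egr2 and Nr4a1 are such cases in control cells, and an SD of 0 there is a property of the deposited values and not a measure of how alike the cultures were. Egr1, Egr4, Nab1 and Nr4a3 had the same value on 2 of the 3 control arrays. Over all probe sets, 2 or 3 control values were identical in 14.5% where control was the middle group and in 8.77% otherwise. Differences below carry the standard error from limma, which pools the spread over the 3 groups and moderates it over all genes. The repeated values enter that spread, and how far they lower the standard errors was not tested. A difference passed the test where its p, after Benjamini-Hochberg adjustment over all 22180 genes, was under 0.05.

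Fibroblast genes were measured as the check of the labelled cell type. Of 10 markers, 9 lay outside the lowest 30% of genes by mean level, and Lum was the one within it. Their summed linear signal ran from 16720.5 to 16800.5 in washout arrays, from 18739.8 to 18790.3 in B/B 1 h arrays and from 18391.7 to 18695.6 in control arrays. In washout cells against control 6 of the 10 fell (Col1a1, Col1a2, Col3a1, Thy1, Pdgfrb and S100a4) and Pdgfra rose. Of all genes, 14.5% were called higher and 11.7% lower in that comparison. At 1 h 0 of the 10 passed in limma (3 higher and 2 lower at unadjusted p under 0.05). At that time 1.01% of all genes were called higher and 1.88% lower, so that 0 of 10 is near those shares. Of 7 measured leukocyte markers 6 were in the lowest 30%, Ptprc among them, and the summed signal was 266.4 to 294.1 in washout, 373.4 to 403.7 in B/B 1 h and 277.7 to 308.5 in control arrays. Cd68, the marker outside the lowest 30%, rose at 1 h from a mean of 7.78 in control to 8.30. Adgre1, within the lowest 30%, rose from 3.27 to 3.56. Ptprc and Lyz2, also within it, fell in washout cells against control. Cd68 fell in washout against B/B 1 h cells, where 16.6% of all genes were called higher and 12.0% lower. Outside the lowest 30% also lay 4 of 5 epithelial, 3 of 4 endothelial and 3 of 4 neuronal markers, so that this measure alone does not set fibroblasts apart. The summed signal of each of these 3 lists was at most 454.4 on any array. Of 5 epithelial, 4 endothelial and 4 neuronal markers, 0 passed at 1 h in limma, again near the shares over all genes. At unadjusted p under 0.05, 1 endothelial marker was higher and 1 lower. After washout Cdh1 was lower and Cdh5 and Snap25 were higher than in control. The part of these shifts in the results below was not tested.

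Of the 9 genes, 5 rose and 1 fell in B/B 1 h cells against control, where 1.01% of all genes were called higher and 1.88% lower. In washout cells against control 1 rose and 7 fell, where 14.5% of all genes were called higher and 11.7% lower. In washout against B/B 1 h cells 1 rose and 8 fell, where 16.6% and 12.0% of all genes were called. The median log2 difference of the 9 genes was 0.45 at 1 h, -1.08 for washout against control and -1.38 for washout against B/B 1 h, beside medians over all genes of 0.0042, 6e-04 and -0.02. The first pair of comparisons shares the control arrays and the last pair the washout arrays, so that their values stand side by side and do not support each other. None of the 9 genes was in the lowest 30% by mean level, and no detection calls were used.

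**Figure D1:**
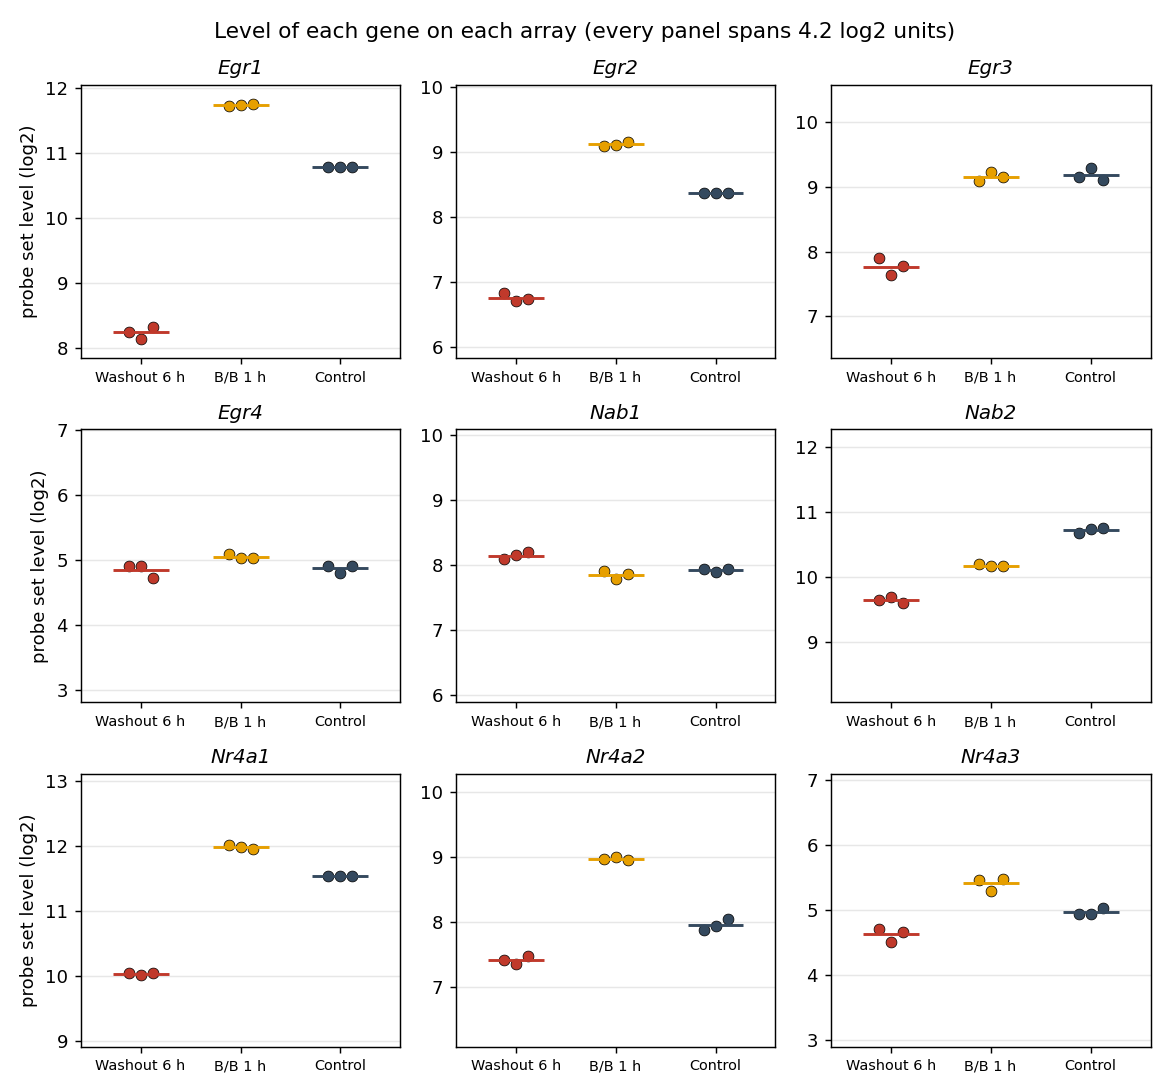
Log2 probe set level (vertical axis) of each gene on each of the 9 arrays, with washout 6 h, B/B 1 h and control arrays from left to right. Points are arrays, lines are group means, and every panel spans the same number of log2 units. Egr1 and Egr2 are lowest in washout arrays and highest in B/B 1 h arrays, Nab2 is highest in control arrays, and Nab1 is highest in washout arrays.

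Egr1, a serum-inducible zinc finger factor, had the widest range of the 9 genes. Its log2 level was 8.24, 8.15 and 8.33 on the washout arrays, 11.72, 11.73 and 11.75 on the B/B 1 h arrays, and 10.79 on each of the control arrays. No 2 groups overlapped, and washout arrays stood far below both others. In B/B 1 h cells Egr1 rose 1.93-fold over control, by 0.95 ± 0.050 (log2, SE; limma adjusted p 9.75e-06). In washout cells it fell by 2.55 ± 0.050 (log2, SE) against control, to 0.171 of the control level (limma adjusted p 4.78e-09). That was the fifth-largest difference of all genes in either direction. Against B/B 1 h cells it fell by 3.50 on the log2 scale, to 0.0887 of that level, the fourth-largest difference in that comparison (limma adjusted p 3.4e-10).

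Egr2, the Krox20 factor known for its role in myelinating Schwann cells, followed the same order of groups. It read 6.83, 6.70 and 6.73 on the washout arrays, 9.10, 9.10 and 9.16 on the B/B 1 h arrays and 8.36 on each control array, again with no overlap between groups. The rise at 1 h was 1.69-fold, or 0.76 ± 0.046 (log2, SE; limma adjusted p 2.23e-05). In washout cells it fell by 1.61 ± 0.046 (log2, SE), to 0.328 of the control level (limma adjusted p 3.06e-08). The fall against B/B 1 h cells was to 0.194 of their level (log2 difference -2.37).

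The promoter of Egr2 is shown because a CArG box, the site that SRF binds, lies in it next to sequences of the kind CREB binds. The RefSeq table of build GRCm38.p6 held 5 annotated starts for Egr2, on chromosome 10, and the 250 bases before each were searched on both strands. Capitals mark, in order, TGACG, the CArG box and CGTCA in the window chr10:67537619-67537868, plus strand.
Egr2: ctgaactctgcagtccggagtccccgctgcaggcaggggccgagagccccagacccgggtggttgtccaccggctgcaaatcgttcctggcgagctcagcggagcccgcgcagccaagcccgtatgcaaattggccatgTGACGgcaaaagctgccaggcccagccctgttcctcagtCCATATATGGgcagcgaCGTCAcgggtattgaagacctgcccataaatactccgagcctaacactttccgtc
The CArG box spans bases 72 to 63 before this start, and the pair of CRE cores (TGACG or its complement CGTCA) spans bases 111 to 107 and 55 to 51. A CArG box was found for 1.62% of 27025 genes with a promoter in the table, and for Egr2 alone among the 7 of the 9 genes with one. Of 22 other immediate-early genes with a promoter in the table, 1 had a CArG box. Egr1 and Egr3 had no promoter in the table and were not searched. Egr2 has more windows than most genes, some of them overlapping, so that a match was more likely for it.

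Egr3, a family member known for its roles in activated lymphocytes and muscle spindles, fell after washout and did not pass the test at 1 h. It read 7.89, 7.64 and 7.77 on the washout arrays, 9.09, 9.22 and 9.14 on the B/B 1 h arrays and 9.14, 9.29 and 9.10 on the control arrays. The B/B 1 h and control arrays overlapped, and the washout arrays lay below both. The difference at 1 h was -0.02, with a 95% interval from -0.19 to 0.14 (log2; limma adjusted p 0.898), which does not reach the rise of 0.76 measured for Egr2. After washout Egr3 fell by 1.41 ± 0.074 (log2, SE), to 0.377 of control (limma adjusted p 1.34e-06), and to 0.383 of B/B 1 h cells.

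Egr4, the member that lacks the NAB docking region, passed the test in 1 of the 3 comparisons. Its values were 4.91, 4.90 and 4.72 on the washout arrays, 5.09, 5.02 and 5.03 on the B/B 1 h arrays and 4.91, 4.79 and 4.91 on the control arrays. B/B 1 h arrays stood just above all others, and washout and control arrays overlapped. The 1 h difference of 0.18 did not pass (95% interval 0.04 to 0.32; limma adjusted p 0.170), nor did that of washout against control, -0.03 (interval -0.17 to 0.11; limma adjusted p 0.817). Washout cells were lower than B/B 1 h cells by 0.21 on the log2 scale (-0.21 ± 0.062, SE; limma adjusted p 0.0325). That call was lost without washout replicate 3 (-0.14, adjusted p 0.100) or without any B/B 1 h replicate (adjusted p 0.0591 to 0.0990), with array medians centred, with a variance trend, and with only the 2 groups in the fit.

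**Figure D2:**
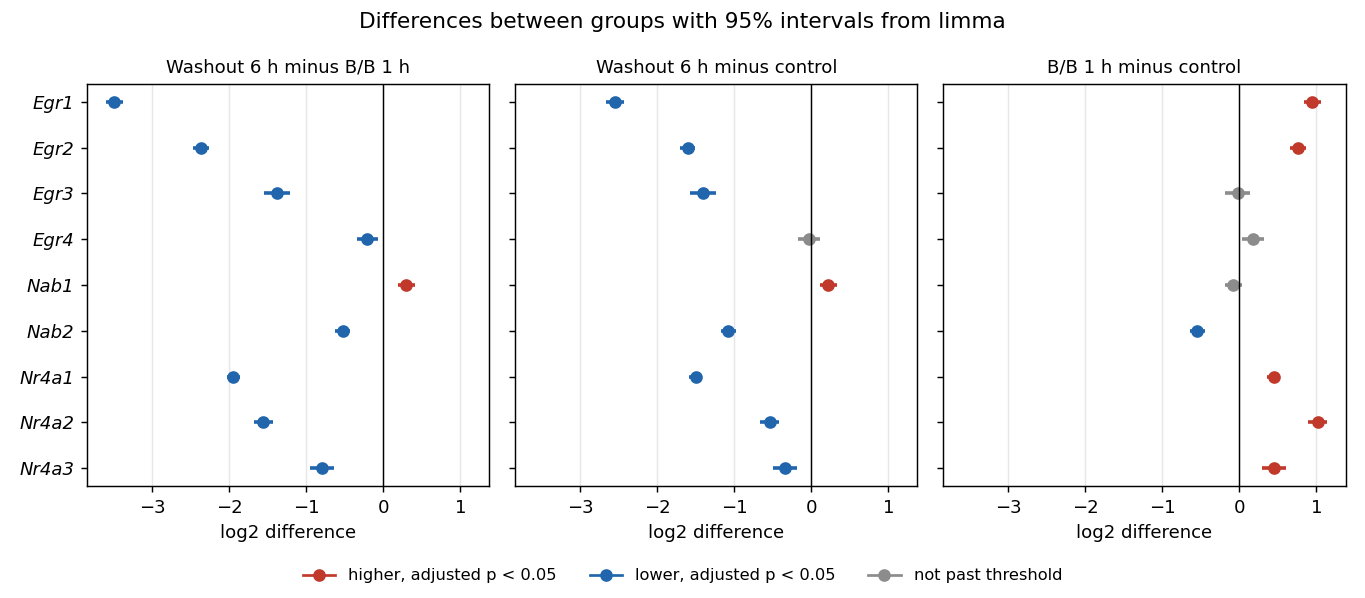
Log2 difference (horizontal axis) of each gene in the 3 comparisons, with 95% intervals from limma as bars. Red and blue mark higher and lower values past the threshold and grey those that did not pass. Egr1 runs from -3.50 for washout against B/B 1 h to 0.95 for B/B 1 h against control, and Nab1 is the gene to the right of 0 in both washout comparisons.

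Of the NAB co-repressors, Nab2 fell at 1 h and further after washout, and Nab1 rose after washout. Nab2, the inducible member, read 9.64, 9.69 and 9.59 on the washout arrays, 10.19, 10.16 and 10.16 on the B/B 1 h arrays and 10.68, 10.74 and 10.74 on the control arrays. The 3 groups formed separate steps, with control highest and washout lowest. At 1 h, Nab2 fell by 0.55 ± 0.043 (log2, SE), to 0.683 of control (limma adjusted p 1.36e-04). It was the member that fell at that time. In washout cells it fell by 1.08 ± 0.043 (log2, SE) against control (limma adjusted p 2.55e-07) and by 0.53 against B/B 1 h cells (limma adjusted p 1.44e-05). A second probe set of Nab2 gave differences of -0.44 at 1 h, -1.11 for washout against control and -0.67 for washout against B/B 1 h, with adjusted p of 9.89e-04, 3.57e-07 and 5.8e-06 in a limma fit over all probe sets with a single gene.

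Nab1, which is less inducible, read 8.09, 8.15 and 8.19 on the washout arrays, 7.90, 7.78 and 7.85 on the B/B 1 h arrays and 7.94, 7.89 and 7.94 on the control arrays. The B/B 1 h and control arrays overlapped (difference -0.08, 95% interval -0.19 to 0.03; limma adjusted p 0.417), and washout arrays lay above both. The rise was 0.22 ± 0.048 (log2, SE; limma adjusted p 0.00719) against control and 0.30 ± 0.048 (log2, SE; limma adjusted p 0.0011) against B/B 1 h cells, or 1.16-fold and 1.23-fold.

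The promoters of Nab1 and Nab2 are compared because EGR proteins bind GC-rich letters of a known form. Exact searches were made for GCGGGGGCG and GCGTGGGCG on both strands. The Nab1 window chr1:52500449-52500698, minus strand, held 3 such matches and 1 CRE core, in capitals. This window lies inside the annotated gene, which reaches base 52500712.
Nab1: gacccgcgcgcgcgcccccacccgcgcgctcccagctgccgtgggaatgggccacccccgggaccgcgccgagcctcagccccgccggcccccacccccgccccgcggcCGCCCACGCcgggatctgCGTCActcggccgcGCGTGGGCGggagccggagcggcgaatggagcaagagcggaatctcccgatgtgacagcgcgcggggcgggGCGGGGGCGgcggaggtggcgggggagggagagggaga
From the left these are CGCCCACGC, CGTCA, GCGTGGGCG and GCGGGGGCG. GCGGGGGCG was found for 2.93% of genes with a promoter in the table and GCGTGGGCG for 0.622%. The Nab1 window is 80.8% G and C, where the median over all windows was 52.4%, and such letters are commoner in GC-rich sequence. The Nab2 window, 72.8% G and C, held none of the 6 motifs searched, which says only that those letters are not in these 250 bases.

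All 3 NR4A genes rose at 1 h and fell below control after washout. Nr4a1, or Nur77, a receptor induced by growth factors and by antigen receptor signals, read 10.042, 10.004 and 10.037 on the washout arrays, 12.002, 11.976 and 11.947 on the B/B 1 h arrays and 11.53 on each control array. The groups did not overlap. Its rise at 1 h was 1.36-fold, or 0.45 ± 0.038 (log2, SE; limma adjusted p 2.52e-04). After washout it fell by 1.502 ± 0.038 (log2, SE), to 0.353 of control (limma adjusted p 1.71e-08), and to 0.259 of B/B 1 h cells.

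Nr4a2, or Nurr1, a receptor required for dopamine neurons, had the largest rise at 1 h among the 9 genes. It read 7.42, 7.35 and 7.47 on the washout arrays, 8.961, 9.002 and 8.946 on the B/B 1 h arrays and 7.88, 7.93 and 8.05 on the control arrays, with no overlap. It rose 2.02-fold at 1 h, by 1.02 ± 0.055 (log2, SE; limma adjusted p 1.12e-05). The 95% interval of this rise, 0.89 to 1.14, overlaps that of Egr1, 0.83 to 1.06, and the difference between these 2 genes was not tested. In washout cells Nr4a2 fell by 0.54 ± 0.055 (log2, SE), to 0.688 of control (limma adjusted p 6.54e-05), and to 0.340 of B/B 1 h cells.

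Nr4a3, or Nor1, read 4.71, 4.51 and 4.66 on the washout arrays, 5.47, 5.30 and 5.48 on the B/B 1 h arrays and 4.94, 4.94 and 5.03 on the control arrays, and the groups did not overlap. It rose 1.37-fold at 1 h, by 0.45 ± 0.069 (log2, SE; limma adjusted p 0.0084), and fell by 0.34 ± 0.069 (log2, SE) in washout cells against control (limma adjusted p 0.00412). Against B/B 1 h cells the fall was 0.79 on the log2 scale, to 0.577 of their level (limma adjusted p 2.08e-05).

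The NR4A promoters are shown side by side because each window holds several CRE cores, the letters CREB binds. Whether CREB had a part in the rise of the 3 genes was not tested. Capitals mark TGACG and CGTCA, and in Nr4a1 also CGCCCCCGC, the complement of an EGR site. The windows are chr15:101266596-101266845 on the plus strand for Nr4a1, chr2:57124004-57124253 on the minus strand for Nr4a2 and chr4:48045055-48045304 on the plus strand for Nr4a3. Each ends at the base before an annotated start. The genes Nr4a1 and Nr4a3 begin upstream of these starts, at bases 101253902 and 48045078.
Nr4a1: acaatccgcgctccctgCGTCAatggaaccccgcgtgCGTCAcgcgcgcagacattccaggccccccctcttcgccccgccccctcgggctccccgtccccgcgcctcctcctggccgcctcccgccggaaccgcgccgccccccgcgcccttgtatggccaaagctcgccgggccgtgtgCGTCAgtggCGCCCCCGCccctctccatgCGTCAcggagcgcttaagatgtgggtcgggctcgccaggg
Nr4a2: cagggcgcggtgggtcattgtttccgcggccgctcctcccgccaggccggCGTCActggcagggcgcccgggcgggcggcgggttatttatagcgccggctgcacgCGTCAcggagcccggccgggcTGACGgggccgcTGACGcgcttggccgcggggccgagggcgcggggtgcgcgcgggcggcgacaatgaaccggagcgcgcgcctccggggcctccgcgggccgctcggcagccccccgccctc
Nr4a3: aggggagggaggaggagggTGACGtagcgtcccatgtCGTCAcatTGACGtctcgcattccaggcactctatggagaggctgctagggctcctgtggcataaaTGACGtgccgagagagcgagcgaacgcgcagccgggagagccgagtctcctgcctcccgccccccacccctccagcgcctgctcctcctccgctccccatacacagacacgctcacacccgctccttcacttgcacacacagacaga
Each of the 3 windows held 4 CRE cores, in sequence that was 74.4% (Nr4a1), 80.0% (Nr4a2) and 63.6% (Nr4a3) G and C. The median over all windows was 52.4%, and windows of like G and C share were not compared. At least 1 CRE core was found for 19.8% of all genes with a promoter in the table, for 6 of the 7 genes here that have one (Nab2 was the exception) and for 13 of 22 other immediate-early genes that have one. Egr4 and Nab1, which did not pass the test at 1 h, are among the 6. The full palindrome TGACGTCA and the NBRE, AAAGGTCA, were found in none of the windows of these 7 genes, beside 1.77% and 1.55% of all genes. Matches of letters are descriptions and were not measured as bound sites.

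**Figure D3:**
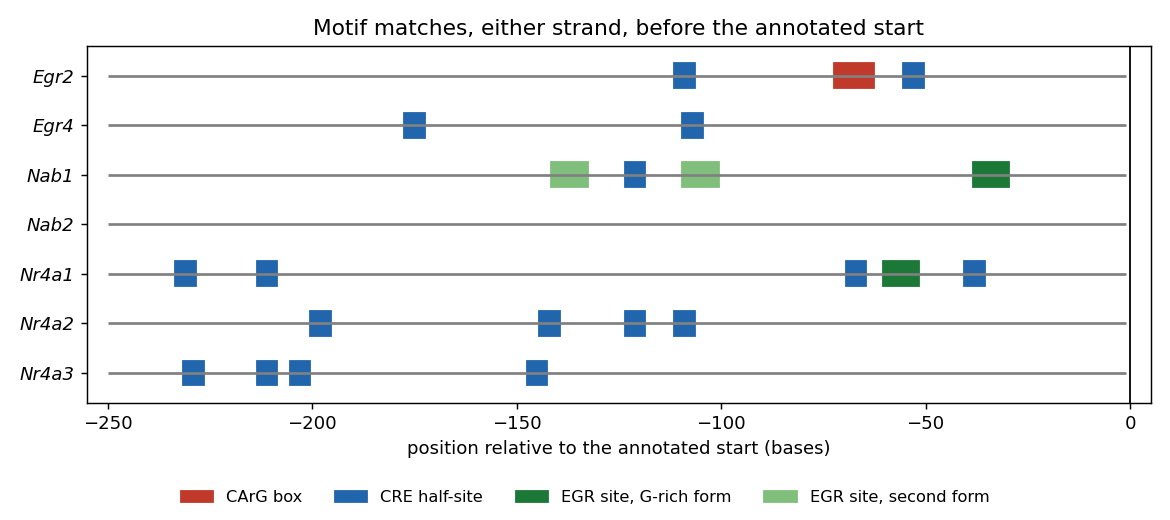
Positions of motif matches on either strand in the 250 bases before an annotated start (horizontal axis, bases). Shown are the 7 genes with a promoter in the RefSeq table, with 1 of the 5 Egr2 windows. The CArG box appears in Egr2, the 2 forms of EGR site in Nab1 and the G-rich form in Nr4a1, 4 CRE cores in each NR4A gene, and none of these in Nab2.

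The genes most like each member were found by Pearson correlation over the 9 arrays among genes whose SD over the arrays was at least 0.5. These were 280 genes, with predicted-gene names and the members left out. The arrays share their 3 groups, so that these coefficients chiefly compare the order and spacing of 3 group means. Csrnp1, a nuclear protein gene induced by AXIN1 in human cells, was the first for Egr1 (r = 0.999), Egr2 (0.998) and Nr4a1 (0.998). Zfp36, whose protein degrades AU-rich transcripts, was among the first 3 for the same genes, and Vcam1, a leukocyte adhesion molecule, for Egr1 and Nr4a1. The immediate-early gene Ier3 was the third for Egr2 (0.995). Csrnp1 had mean levels of 7.36 in washout, 9.73 in B/B 1 h and 9.06 in control cells. Nr4a2 was closest to Klf6 (0.997), a Kruppel-like factor, Jund (0.995), an AP-1 subunit, and Ppp1r15a (0.995), a phosphatase subunit that restarts translation after stress. Nr4a3 was closest to Kctd4 (0.990) and to the microRNA genes Mir27a and Mir5123 (0.988 and 0.981).

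Egr3 was closest to Loxl3 (r = 0.997), a lysyl oxidase-like enzyme, to the clock gene Per1 (0.994) and to Mtus1 (0.994), a microtubule-associated tumour suppressor candidate. Nab2 was closest to Id2 (0.998), an inhibitor of helix-loop-helix factors, and to the clock repressor Bhlhe40 (0.989), with the platelet chemokine gene Ppbp at 0.983. Id2 had mean levels of 8.87 in washout, 9.58 in B/B 1 h and 10.37 in control cells, the same stepwise order as Nab2. Nab1 had no neighbour as close among the genes compared: Mtm1, a phosphoinositide phosphatase, reached 0.974 and Ttll7, a tubulin ligase, 0.966. Nab1 itself ran only from 7.78 to 8.19, and genes of so narrow a range were not compared. The part of this in its lower coefficients was not tested. Egr4 was left out since its F-test over the 3 groups did not pass (limma adjusted p 0.0559), where 29.5% of all genes passed.

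Other immediate-early genes were counted beside these 9. Of all genes, 1.01% were called higher and 1.88% lower at 1 h. For washout the shares were 14.5% and 11.7% against control, and 16.6% and 12.0% against B/B 1 h cells. Of 29 measured, 18 rose and 3 fell at 1 h, with a median log2 difference of 0.38. The largest rises were those of Fos at 1.95, Btg2, an antiproliferative co-regulator, at 1.46 and Jund at 1.18. With the processing varied, the Jund rise ran from 0.84 to 1.20 (log2) and kept its call. In washout cells against control 4 rose and 20 fell, with a median of -0.55, and the largest falls were those of Zfp36 at -2.62, Fosb at -2.40 and Fos at -2.24 (log2). Against B/B 1 h cells 1 rose and 24 fell, with a median of -1.20, and Fos had the largest difference, -4.19 (log2). The 3 that fell at 1 h, Klf10 at -0.36, Sik1 at -0.26 and Gadd45b at -0.66, are named after their values were seen because the count is small. Like Nab2, they stood lower again after washout, at -1.93, -0.52 and -1.06 against control (log2; limma adjusted p at most 6.53e-05).

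Genes of upstream regulators of immediate-early promoters showed no call at 1 h, where 1.01% of all genes were called higher and 1.88% lower. The activity of their proteins was not measured. A count of 0 among 14 genes is near those shares. Of 14 measured genes of SRF, its ETS-family and MRTF partners, CREB and its co-activators and MEF2, 0 rose and 0 fell at 1 h by limma (0 and 1 at unadjusted p under 0.05), with a median difference of -0.02. In washout cells against control 6 rose and 3 fell, where 14.5% of all genes were called higher and 11.7% lower. Mef2c and Mef2d, calcium-responsive activators of Nr4a1 in T cells, fell by 0.81 ± 0.048 and 0.78 ± 0.042 (log2, SE), with limma adjusted p of 2.4e-06 and 1.52e-06. With its probe sets averaged, Mef2c fell by 0.52 against control and by 0.58 against B/B 1 h cells (log2), and both calls held. Srf, added after its value was seen, averaged 9.36 in washout and 9.61 in control cells and fell by 0.25 ± 0.040 (log2, SE; limma adjusted p 0.00107). Mrtfb, an actin-regulated SRF partner, rose by 0.43 ± 0.056 (log2, SE), or by 0.23 with its probe sets averaged. Against B/B 1 h cells 7 rose and 3 fell, where 16.6% of all genes were called higher and 12.0% lower. Mef2c stood at -0.91, Mef2d at -0.67 and Mrtfb at 0.34 (log2). The Mrtfb call was lost with its probe sets averaged (0.13, limma adjusted p 0.0962).

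Of 8 partner genes (RXR genes, whose proteins pair with NR4A1 and NR4A2, the chromatin remodellers Chd3 and Chd4, the GC-box factors Sp1 and Sp3, and Wt1, which binds EGR-like sites), 0 rose and 0 fell at 1 h by limma (0 and 0 at unadjusted p under 0.05), with a median of 0.07. At that time 1.01% of all genes were called higher and 1.88% lower, so that 0 of 8 is near those shares. In washout cells Chd3 fell by 0.38 ± 0.049 and Sp1 rose by 0.22 ± 0.054 (log2, SE; limma adjusted p 2.74e-04 and 0.0136) against control, and Chd3 alone passed against B/B 1 h cells, at -0.46. Over all genes 14.5% were called higher and 11.7% lower against control, and 16.6% and 12.0% against B/B 1 h cells. The Sp1 call was lost without control replicate 3 or washout replicate 1 (adjusted p at most 0.0536).

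**Figure D4:**
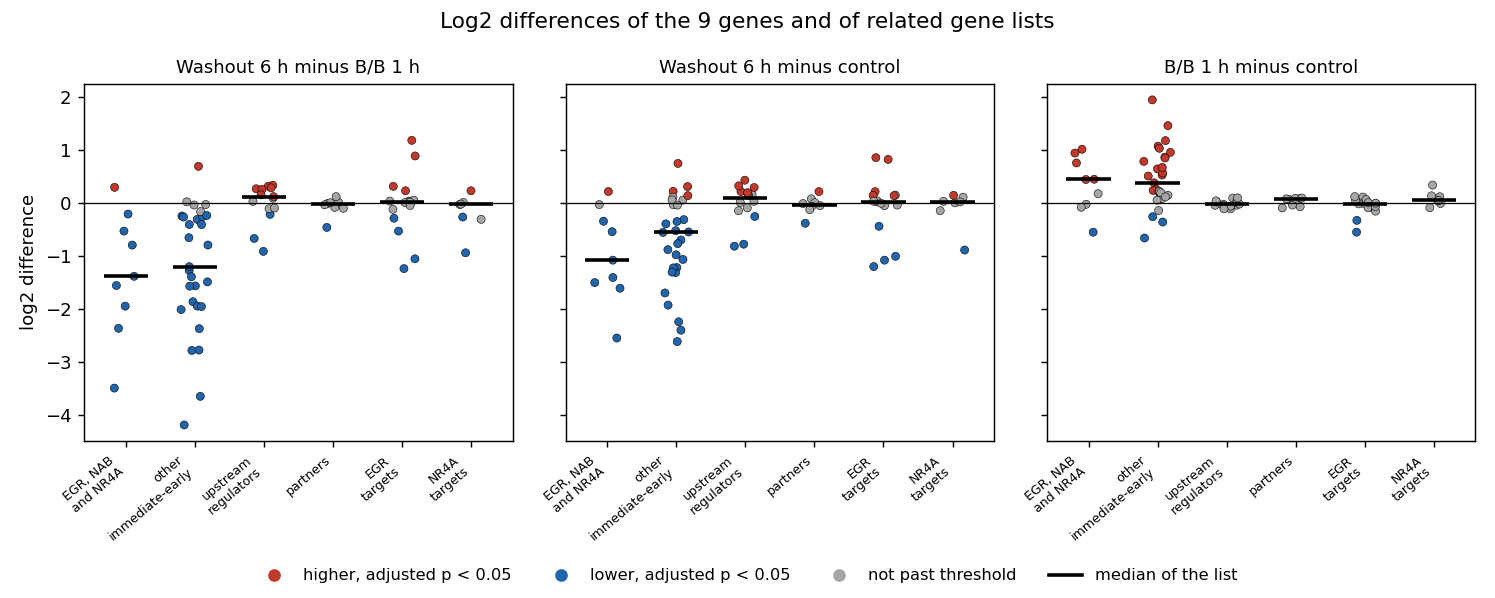
Log2 difference (vertical axis) of each gene in the 9 members and in 5 related lists, in the 3 comparisons. Points are genes, coloured by call, and black bars are list medians. The medians of the 9 genes and of other immediate-early genes are above 0 for B/B 1 h against control (0.45 and 0.38) and below 0 in both washout comparisons, and those of the other 4 lists lie between -0.03 and 0.11.

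Genes described as EGR targets did not move in 1 direction. Over all genes, 1.01% were called higher and 1.88% lower at 1 h. The shares were 14.5% and 11.7% for washout against control, and 16.6% and 12.0% against B/B 1 h cells. Of 16 measured, 0 rose and 2 fell at 1 h by limma (1 and 3 at unadjusted p under 0.05; median -0.0081), namely Nab2, which is also one of the 9 genes, and Fgf2, a fibroblast mitogen, by 0.33 ± 0.057 (log2, SE; limma adjusted p 0.0168). The Fgf2 call was lost on leaving out control replicate 1, control replicate 2 or the first B/B 1 h replicate (adjusted p at most 0.0656). In washout cells against control 5 rose and 4 fell, with a median of 0.03. F3, the tissue factor that starts coagulation, fell by 1.20 ± 0.051 and Thbs1, a matrix glycoprotein that activates TGF-beta, by 1.01 ± 0.044 (log2, SE; limma adjusted p 3.99e-07 and 4.41e-07). Against B/B 1 h cells 4 rose and 4 fell, and Fgf2 stood higher by 1.19 ± 0.057 (log2, SE), at 9.56 in washout and 8.37 in B/B 1 h cells.

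Of 7 measured genes described as NR4A targets in endocrine, neural or muscle cells, 0 rose and 0 fell at 1 h by limma (2 and 0 at unadjusted p under 0.05), with a median of 0.05. At 1 h 1.01% of all genes were called higher and 1.88% lower, so that 0 of 7 is near those shares. In washout cells 1 rose and 1 fell against control, where 14.5% of all genes were called higher and 11.7% lower, and 1 rose and 2 fell against B/B 1 h cells, where 16.6% were called higher and 12.0% lower. After washout Eno3, the muscle enolase, fell by 0.89 ± 0.051 (log2, SE; limma adjusted p 2.26e-06) against control and by 0.94 against B/B 1 h cells. Ccnd1, a G1 cyclin that is also in the EGR list, rose by 0.15 ± 0.040 (log2, SE; limma adjusted p 0.0224) against control, a call lost without control replicate 2 or 3 or washout replicate 1 (adjusted p at most 0.0845), and by 0.23 against B/B 1 h cells. Cyp21a1, a steroid hydroxylase, was in the lowest 30% of genes by mean level and passed only against B/B 1 h cells, at -0.26, with overlapping arrays. That call was lost with only those 2 groups in the fit, and on leaving out replicate 1 or 2 of B/B 1 h or replicate 2 or 3 of washout (adjusted p at most 0.0752).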

How the data were processed

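Total RNA of 9 samples was extracted with Trizol and hybridised as biotinylated cRNA to one-colour Affymetrix arrays, per the labels' protocols, 3 samples for each of 3 treatment labels. The deposited values are probe set summaries on a log scale, taken as log2 from their range, and the sources used here do not say if or how the authors normalized them between arrays. The submitters' processing notes name Partek 6.6, with no summary or normalization method. Probe sets numbered 41345, of which 23521 had a single gene symbol, 1814 had several and 16010 had none. Where a gene had several single-symbol probe sets, that with the highest overall mean was used.

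All 22180 genes were fitted in R 4.3.3 with limma 3.58.1 (lmFit, eBayes; statmod 1.5.0), with 3 group means, 6 residual degrees of freedom and Benjamini-Hochberg adjustment within each comparison at 0.05. The number of arrays limits the precision. The code was tested on simulated data. Members and lists were chosen with earlier results of these data known. List genes named are up to 3 per list and comparison by size among those past the threshold, and the 3 genes nearest each member by correlation, of which 1 is not reported here. Older list symbols (Mkl1, Mkl2, Cyr61 and Ctgf) were matched through synonyms in a RefSeq gene table (GRCm38.p6). Promoters came from a RefSeq table of that build and were found for 7 of the 9 genes.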

Additional observations from a re-analysis of the deposited data

How the results depend on the processing

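Each of 27 member differences was recomputed under quantile normalization, centred array medians, the lowest 30% of genes left out, probe sets averaged, a variance trend, array weights, only the 2 groups compared, and each array left out. Of 432 such values 421 kept their direction and their side of the threshold. The exceptions were in Egr3 and Egr4. The Egr3 difference at 1 h, not past the threshold at -0.02, changed sign to 0.005 with quantile normalization and ran from -0.0597 to 0.0318 with 1 array left out. The Egr4 difference between washout and control ran from -0.0684 to 0.0347 with 1 array left out, turning positive without washout replicate 3. The Egr4 call between washout and B/B 1 h was lost with array medians centred (-0.17, adjusted p 0.0585), a variance trend (adjusted p 0.0512) and only the 2 groups compared (adjusted p 0.0524), each near -0.21 but the first, and without single arrays it lay between -0.24 and -0.14. Of 463 values of the other list genes named, 449 kept direction and call and 14 lost the call. Srf, Klf10, Sik1 and Gadd45b, named after their values were seen, and the cell type markers were not recomputed and are not among these. The count of genes called at 1 h, 642, was 1228 with a variance trend, 359 with only the 2 groups compared, and 323 to 691 with 1 array left out. The counts for washout against control, washout against B/B 1 h and the F-test stayed within 1.5 times under the alternatives run. The quantile and centred scalings moved the median gene by at most 0.04 (log2). No paired analysis was possible because the labels give no replicate numbers, and those used here only name arrays in the order of their records. Slide and scan dates were not used here, and background correction could not be varied on summarised values. With 3 arrays per group and no detection calls, whether Egr4 and Nr4a3 lie above background was not measured.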
